A study of Homo sapiens with 19 samples.

Results

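The 40 genes described here encode the enzymes of glycolysis with their transporters and regulatory kinases, well-known targets of the hypoxia-inducible factors (HIF), and the oxygen-sensing machinery itself. They were chosen as a list of symbols, and each stands for the brightest, over the 19 arrays, of the probes whose RefSeq accession maps to it. A probe was matched for 39 of the 40 genes, and ALDOA was not matched. All 39 passed the filter of being well above background on at least 5 arrays, which 16693 of the 20503 named genes passed, 38 of them on all 19 arrays and CA9 on 15.
The cells were KhES-3, an established human embryonic stem cell line, and all 19 arrays come from cells induced to differentiate toward brown adipocytes (BAs) in a low-attachment dish, in a serum-free medium with insulin, transferrin, selenium, ascorbic acid 2-phosphate and a cocktail of IGF-II, BMP4, VEGFA, KITLG, FLT3LG and IL-6. The labels say that the line was kept on irradiated mouse embryonic fibroblasts, whereas the study's methods describe feeder-free culture. There was 1 one-colour array per time after induction, with no uninduced array and no replicate. The spread between cultures could not be measured, and p-values rest on how far the arrays scatter about a fitted line. The oxygen level of the cultures is not given in the sources used here.
Of 3 slides, the first carried the 6 arrays of 3, 4, 6, 8, 10 and 12 h, the second the 8 arrays of 14, 16, 20, 24, 28, 32, 36 and 42 h, and the last, scanned on a later day, the 5 arrays of 48, 54, 60, 66 and 72 h. Level differences between these blocks of time cannot be told apart from the slides. An array had between 49.5% and 64.7% of its probes well above background. All 8 pluripotency markers, among them POU5F1, NANOG and SOX2, were detected throughout. Of the 8 fibroblast markers THY1, COL1A1 and COL1A2 were detected on all 19 arrays, DCN and PDGFRB on 9 and 17, and COL3A1, LUM and POSTN did not pass the background filter. Of the 6 endothelial markers KDR, TEK and CDH5 were detected on all 19 arrays and TIE1 on 18, and PECAM1 and ERG did not pass.

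Glycolysis splits glucose into pyruvate in the cytosol, and lactate dehydrogenase turns pyruvate into lactate when it is not taken up by mitochondria. Pluripotent stem cells are known for a high glycolytic rate. When oxygen is ample, prolyl hydroxylases (EGLN1 and EGLN3 here) mark the HIF alpha subunits HIF1A and EPAS1 (HIF-2 alpha) for destruction. When oxygen is short the subunits persist, pair with ARNT and switch on genes of glucose uptake, glycolysis, mitophagy, collagen hydroxylation and angiogenesis. This control acts on the protein, and the arrays measured RNA.

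HIF binds a core of 5 bases, ACGTG or GCGTG, in the hypoxia response element of its target genes. RefSeq windows from 250 bases before to 50 after a start of transcription (GRCh38.p14) were at hand for 35 of the 39 genes, with 63 windows in all, and not for VEGFA, SLC2A3, BNIP3L and NDRG1. The letters ACGTG occurred on either strand in 23 of the 63 windows (36.5%), against 21.4% of all 35116 windows. Counted by gene, 21 of the 35 genes (60.0%) had a window with ACGTG, against 24.9% of all genes. GCGTG occurred in 46.0% of the windows, against 36.5% of all windows. CACGTG, the palindrome bound by MYC and by the glucose-sensing factors MondoA and ChREBP, contains ACGTG on both strands and occurred in 11.1% of the windows, against 7.26% of all. A match of letters is a description and not a bound site.
The bases before the start are shown for the 3 genes with the largest change between the 36 and 42 h arrays and for the LDHA and LDHB pair, whose ratio changed with time. For PFKFB3 and LDHA, with 2 windows each, the one with more matches is shown. Capitals mark ACGTG, or CACGT where it lies on the other strand, and GCGTG is left in lower case.
ANKRD37: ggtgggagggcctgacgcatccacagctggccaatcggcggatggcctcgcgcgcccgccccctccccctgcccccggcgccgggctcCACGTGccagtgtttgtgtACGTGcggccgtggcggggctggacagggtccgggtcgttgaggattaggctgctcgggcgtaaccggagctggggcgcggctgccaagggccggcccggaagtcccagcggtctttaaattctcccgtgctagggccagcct
DDIT4: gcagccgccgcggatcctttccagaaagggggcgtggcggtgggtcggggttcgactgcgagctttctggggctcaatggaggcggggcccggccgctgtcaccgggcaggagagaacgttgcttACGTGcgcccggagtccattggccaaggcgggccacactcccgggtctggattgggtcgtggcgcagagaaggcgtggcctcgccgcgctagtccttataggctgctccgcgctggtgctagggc
PFKFB3: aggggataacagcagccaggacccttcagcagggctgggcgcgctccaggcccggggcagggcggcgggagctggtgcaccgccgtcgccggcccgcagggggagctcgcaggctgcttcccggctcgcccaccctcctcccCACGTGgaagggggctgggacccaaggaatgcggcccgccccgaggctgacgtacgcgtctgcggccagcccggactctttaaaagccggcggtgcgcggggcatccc
LDHA: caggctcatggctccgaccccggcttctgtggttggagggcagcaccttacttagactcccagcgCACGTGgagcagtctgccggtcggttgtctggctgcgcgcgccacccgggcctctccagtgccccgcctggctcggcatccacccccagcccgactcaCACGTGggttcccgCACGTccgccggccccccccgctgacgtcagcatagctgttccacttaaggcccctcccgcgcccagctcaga
LDHB: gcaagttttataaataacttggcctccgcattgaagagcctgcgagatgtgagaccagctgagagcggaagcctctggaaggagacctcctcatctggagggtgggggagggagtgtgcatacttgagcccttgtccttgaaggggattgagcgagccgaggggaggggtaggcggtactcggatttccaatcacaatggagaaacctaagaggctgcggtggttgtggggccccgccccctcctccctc
These stretches of 250 bases are chr4:185396591-185396840 (plus strand) for ANKRD37, chr10:72273674-72273923 (plus strand) for DDIT4, chr10:6202682-6202931 (plus strand) for PFKFB3, chr11:18394313-18394562 (plus strand) for LDHA and chr12:21657843-21658092 (minus strand) for LDHB. ANKRD37 held 3 matches to ACGTG, at 162, 161 and 143 bases before the start, of which the first 2 overlap in a CACGTG. DDIT4 held 1 match to ACGTG, 125 bases before the start, and 2 to GCGTG, 219 and 53 bases before it. PFKFB3 held 2, which overlap in a CACGTG, 108 and 107 bases before the start. LDHA held 5 matches, between 185 and 73 bases before the start, and LDHB held none. In the stretches shown of the genes other than DDIT4, GCGTG did not occur on either strand.

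Signals are processed intensities scaled to a common 75th percentile of 871, and changes are differences of log2 signal. In RNA from whole cultures, fewer cells of a kind and less RNA per cell cannot be told apart. The largest common event was a step down from the 36 h to the 42 h array. It was noticed after the values were seen and is described without a test. From 36 to 42 h, within the second slide, 37 of the 39 members had a lower signal, against 47.5% of the tested genes. Of these, 12 members were lower by at least 1 on the log2 scale, that is 2-fold, against 1.26% of the tested genes. The median step of the members was -0.62, and that of all tested genes 0.02. The 36 h array was the highest of the series for 21 members, and a signal below it is not always a low one. At 42 h the log2 signal minus the gene's own mean over the 19 arrays was 0.24 for PDK1 and 0.31 for P4HA1. It was -3.02 for ANKRD37 and -2.24 for DDIT4.
ANKRD37 (NM_181726), an ankyrin-repeat protein and HIF target of little-known function, had the largest step among the tested genes detected on all 19 arrays. From early to late, its signals on the first slide were 3206, 4618, 797, 2738, 6951 and 14926. On the second slide they were 10396, 3162, 9529, 17884, 23439, 13681, 23576 and 730. On the third slide they were 5500, 1465, 12348, 12075 and 3906. The gene was thus high at 12 h, from 24 to 36 h and at 60 and 66 h, and below both neighbouring arrays at 6, 16, 42 and 54 h. It was lower at 8 h (2738) than at 16 h (3162), and about as low at 3 h (3206). Its step from 36 to 42 h was -5.01.
DDIT4 (REDD1, NM_019058), which restrains the mTORC1 growth kinase under stress, had its low points on the same 4 arrays but differed elsewhere. It was high on the first 2 arrays (59641 and 56770), where ANKRD37 was below its own mean, and its highest signal lay at 60 h rather than 36 h. Its signal went from 56770 to 11539 between 4 and 6 h, from 52461 to 20388 between 14 and 16 h and from 78250 to 8602 between 36 and 42 h, and it was at 22355 at 54 h before 90515 at 60 h. The step from 36 to 42 h was -3.19. PFKFB3 (NM_004566), a kinase that makes fructose 2,6-bisphosphate and so activates phosphofructokinase, had signals of 4180, 980 and 2297 at 36, 42 and 48 h. A second probe of PFKFB3 had a step of -1.38 against -2.09 for the brighter probe.
The other 9 members with such a step came from several roles. ADM, which encodes the vasodilator peptide adrenomedullin, had signals of 74144 at 36 h and 20883 at 42 h (-1.83), and VEGFA, the angiogenic growth factor, 3061 and 1225 (-1.32). The transporters SLC2A1 (GLUT1, basal glucose uptake) and SLC16A3 (MCT4, lactate export) were at 57154 and 34015 at 36 h and at 17520 and 15198 at 42 h, steps of -1.71 and -1.16. HK2, the inducible hexokinase, was at 16676 and then 6616 (-1.33), and PFKFB4, a relative of PFKFB3, at 9902 and then 2831 (-1.81). KDM3A, a histone demethylase, MXI1, a MAX-binding antagonist of MYC, and EGLN1, the main HIF prolyl hydroxylase, had steps of -1.62, -1.41 and -1.38. Second probes of HK2 and VEGFA gave -1.57 and -1.52, and of the 2 other probes of MXI1 one gave -1.06 and one 0.02.

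**Figure D1:**
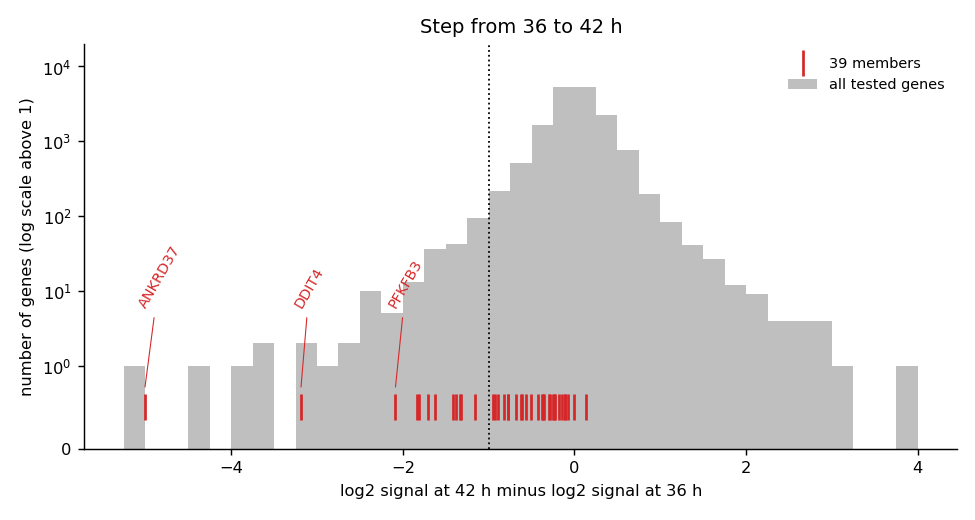
Number of tested genes (grey bars, vertical axis on a log scale above 1) by the difference of log2 signal between the 42 h and the 36 h array, with the 39 members as red ticks whose height carries no value. The dotted line stands at a step of -1, which 12 members reached, with ANKRD37 at -5.01, DDIT4 at -3.19 and PFKFB3 at -2.09.

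The glycolytic enzymes themselves moved less at this step. Their median was -0.27 over 14 genes, from -1.33 for HK2 to -0.11, and that of the 9 intracellular hypoxia targets was -0.93. The HIF alpha subunits had no such step. HIF1A had a signal of 3744 on both arrays, a step of 0.00, and EPAS1 went from 360 to 397, a step of 0.14. Among the 21 members whose promoter windows hold ACGTG, 7 were lower by at least 1 at 42 h, and among the 14 whose windows do not, 4 were, with medians of -0.78 and -0.32.

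Steps down of the same kind led to the 6, 16 and 54 h arrays, each from an array of the same slide. With 42 h these are called low points, for a signal below the neighbouring arrays and not for a low level. These times were also chosen after the values were seen. From 4 to 6 h 33 of the 39 members were lower (49.4% of tested genes), from 14 to 16 h 35 (47.8%) and from 48 to 54 h 37 (50.6%). The median steps of the members were -0.18, -0.33 and -0.26, and those of all tested genes 0.00, 0.01 and 0.00. Most members were lower after some other steps too. These were 32 from 12 to 14 h, where the slide changes, 27 from 28 to 32 h and 31 from 66 to 72 h. The medians were -0.21, -0.14 and -0.19 for the members and -0.1, -0.01 and -0.03 for all tested genes. A signal below both the array before and the array after at all of 6, 16, 42 and 54 h was found for 17 members (43.6%), against 2.2% of the tested genes. With the arrays scaled to the spike-in transcripts, control RNA added in known amounts, 7 members met this condition (17.9%), against 0.695% of the tested genes.
The 16 h array held the lowest signal of the series for SLC2A1 (15848), SLC2A3 (4076), SLC16A3 (6204), BNIP3 (13512), EGLN1 (507), PGK1 (52811) and LDHA (36031). It did so for other members too, among them GPI, GAPDH and VEGFA. The share of all tested genes that were lowest on this array is not reported here. From 48 to 54 h 1 member, ANKRD37, was lower by at least 1, with a step of -1.91. From 54 to 60 h 3 members, ANKRD37, DDIT4 and ADM, were higher by 3.08, 2.02 and 1.28, and such a step of at least 1 upward was found for 1.01% of the tested genes. From 42 to 48 h, across 2 slides, 5 members were higher by at least 1 (0.599% of tested genes), namely ANKRD37, DDIT4, PFKFB4, PFKFB3 and SLC2A1.
The share of probes well above background was 60.7% at 6 h between 61.1% and 58.3%, 52.0% at 16 h between 49.5% and 56.0%, 62.1% at 42 h between 61.0% and 62.8%, and 64.7% at 54 h between 62.8% and 61.7%, the highest of the 19. The spike-in level relative to the 75th percentile, in log2, was above that of both neighbours at 6 h (4.00 against 3.755 and 3.848) and at 42 h (3.985 against 3.742 and 3.756). It lay between its neighbours at 16 h (3.755) and below both at 54 h (3.663). The part of these array measures in the low points was not tested. From 36 to 42 h the median step was 0.05 for the 8 pluripotency markers, 0.09 for the 5 fibroblast and 0.09 for the 4 endothelial markers tested, and none of these 17 genes was lower by 1 or more. Their summed signals ranged over the series from 616720 to 835787, from 26422 to 47148 and from 2770 to 8237.
Between the low points the members were highest in the second day. The highest signal lay on the 24, 28, 32 or 36 h array for 29 of the 39 members (74.4%), against 16.2% of the tested genes, and on the 36 h array for 21 (4.21% of tested genes). BNIP3, a mitochondrial receptor for mitophagy, had signals of 21195, 58693 and 36437 at 3, 36 and 72 h. PDK1, which blocks entry of pyruvate into the mitochondrial cycle, was at 3228, 10731 and 2848 at these times. BNIP3L, a relative of BNIP3, was at 4374, 9260 and 3473, and PFKFB4 at 1925, 9902 and 2499. At 72 h PDK1 and BNIP3L were thus below their signal at 3 h, and BNIP3 and PFKFB4 above it.

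**Figure D2:**
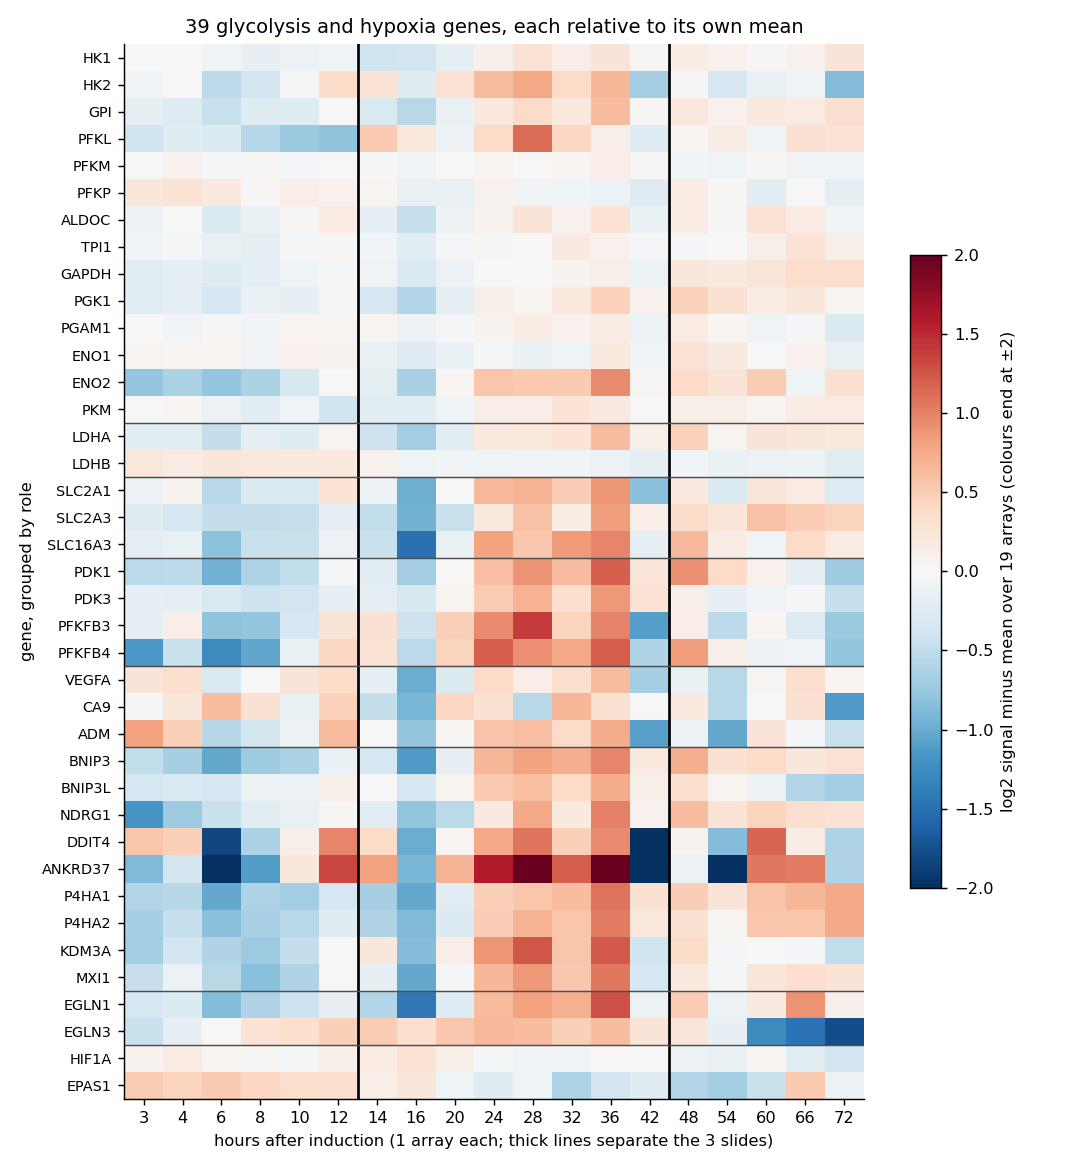
Log2 signal of each of the 39 members minus its own mean over the 19 arrays (colour, ending at ±2), by hours after induction from left to right and by role from top to bottom. Thick vertical lines separate the 3 slides, most rows are red from 24 to 36 h, and the columns at 6 and 16 h are blue in most rows.

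**Figure D3:**
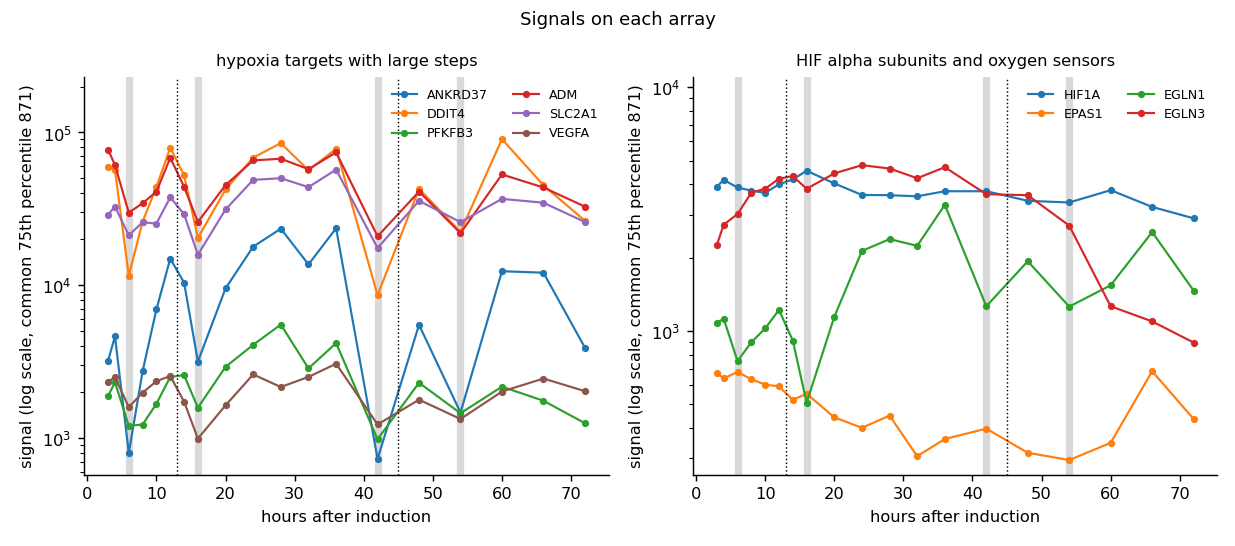
Signal on a log axis by hours after induction, each point 1 array, for 6 hypoxia targets (left) and for the HIF alpha subunits and oxygen sensors (right). Grey bands mark 6, 16, 42 and 54 h, dotted lines the changes of slide. ANKRD37 was at 23576 at 36 h and 730 at 42 h, while HIF1A was at 3744 on both arrays.

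A straight line over 3 to 72 h was tested with limma. At an adjusted p under 0.05, 14 of the 39 members rose (35.9%), against 24.6% of the tested genes, and 5 fell (12.8%), against 29.8%. From the first 3 arrays (3, 4 and 6 h) to the last 3 (60, 66 and 72 h), the difference of mean log2 signals, called late minus early, had a median of 0.25 over the members and -0.05 over all tested genes. These directions are relative to the 75th percentile of the array. With the array median as the scaling, 5 members rose (10.6% of tested genes) and 8 fell (44.5%), and with the spike-in transcripts 1 rose (3.59%) and 7 fell (44.5%). The same median was then -0.12 over the members and -0.42 over all genes with the array median, and -0.40 and -0.69 with the spike-in transcripts. With the slide as a block 2 members rose (4.12% of tested genes) and 0 fell (5.97%). A cubic curve in time, which can follow a rise and a later fall, was called for 24 members (61.5%) and for 79.6% of the tested genes.
Markers of other cell kinds also moved over the 19 arrays. Of the 4 endothelial markers tested 3 rose, namely KDR, a VEGF receptor, from an early mean of 2364 to a late mean of 5969 (limma adjusted p = 1.03e-05), TIE1 and CDH5, and 1 fell, the angiopoietin receptor TEK, from 1016 to 220 (adjusted p = 8.01e-09). With the spike-in transcripts 1 rose and 1 fell, and with the slide as a block TEK alone passed. Of the 5 fibroblast markers tested COL1A2 rose and PDGFRB fell, and of the 8 pluripotency markers 0 rose and 4 fell. The summed signal went from an early mean of 3583 to a late mean of 6563 for the endothelial, from 41047 to 38140 for the fibroblast and from 806192 to 654661 for the pluripotency markers. KDR made up most of the endothelial sum, and THY1 (28028 early, 23521 late) most of the fibroblast sum. TIE1 (63.7 early, 98.7 late) and CDH5 (104 and 157) had low signals. The part of these markers in the slopes of the members was not tested.

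**Figure D4:**
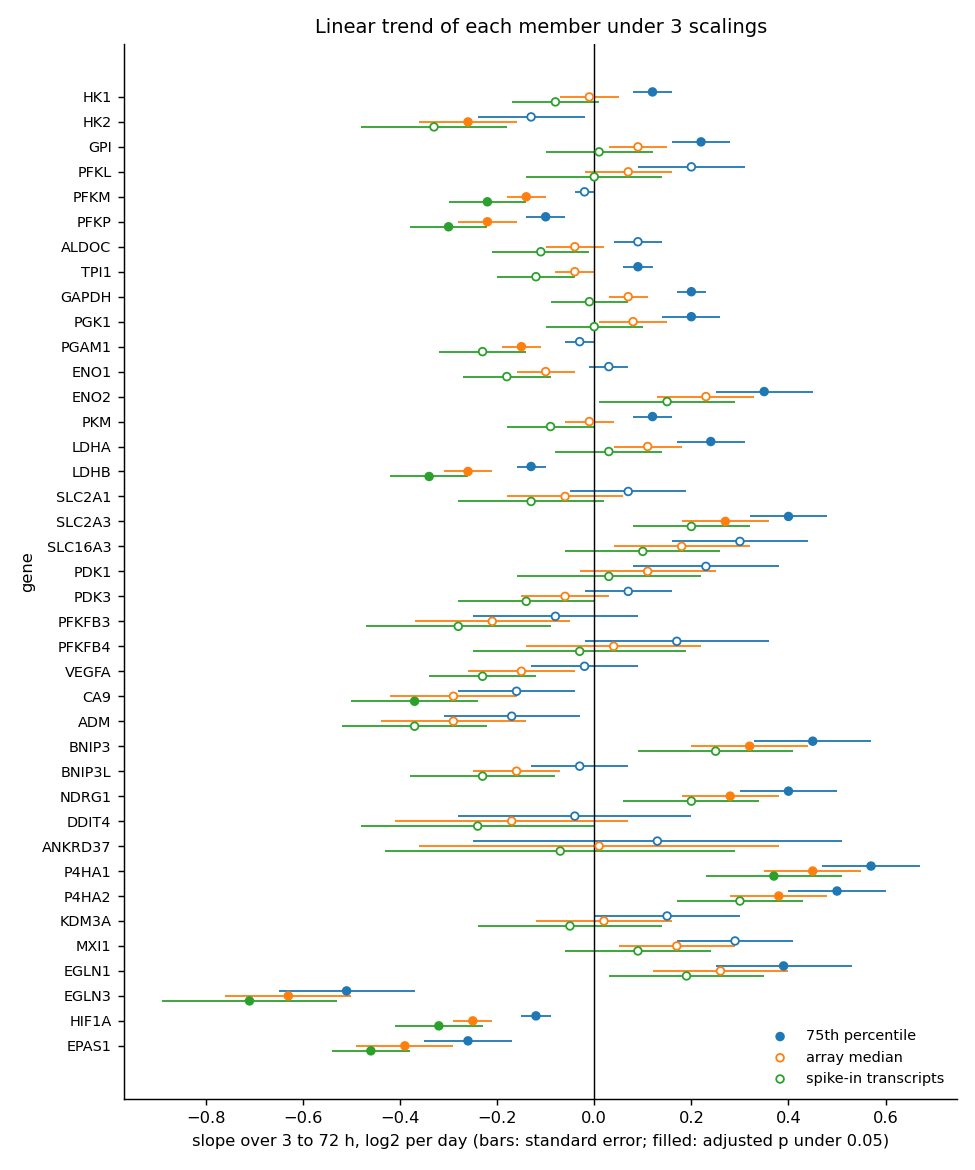
Slope of log2 signal over 3 to 72 h in log2 per day for each member, with its standard error as a bar, scaled by the 75th percentile (blue), the array median (orange) or the spike-in transcripts (green). Filled circles passed an adjusted p of 0.05. P4HA1 was filled on the right of 0 and PFKP, LDHB, EGLN3, HIF1A and EPAS1 on the left of 0 under all 3 scalings. A change of scaling shifts every slope by the same amount, here downward, so a fall had to keep its direction.

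The firmest rises were those of the prolyl 4-hydroxylase subunits P4HA1 (NM_001142595) and P4HA2 (NM_004199), which modify collagen. The signal of P4HA1 was 2020 at the start and 5083 at 72 h, with a lowest value of 1485 (6 h), a median of 3595 and a highest value of 6460 (36 h). Its slope was 0.57 log2 per day (standard error 0.10, limma adjusted p = 0.000138), and 0.45 with the array median (adjusted p = 0.00112), 0.37 with the spike-in transcripts (adjusted p = 0.0336) and 0.99 with the slide as a block (adjusted p = 0.0241). That of P4HA2 was 2809 and 7510 on the same arrays, with a lowest value of 2412 (16 h), a median of 4629 and a highest value of 9118 (36 h). Its slope was 0.50 (standard error 0.10, limma adjusted p = 0.000383), and 0.30 with the spike-in transcripts (adjusted p = 0.0743) and 0.98 with the slide as a block (adjusted p = 0.0196). Among the members P4HA1 alone passed in each of these 4 fits.
BNIP3 rose by 0.45 log2 per day (standard error 0.12, limma adjusted p = 0.00521), NDRG1, a stress-responsive differentiation gene, by 0.40 (standard error 0.10, adjusted p = 0.00326) and SLC2A3 (GLUT3, the high-affinity glucose transporter) by 0.40 (standard error 0.08, adjusted p = 0.000457). Their signals were 21195, 1348 and 6551 at 3 h and 36437, 3751 and 10553 at 72 h. These 3 also rose with the array median (adjusted p = 0.0303, 0.0297 and 0.0143), and had slopes of 0.25, 0.20 and 0.20 with the spike-in transcripts (adjusted p = 0.237, 0.286 and 0.218). For SLC2A1, the other glucose transporter, the slope was 0.07 (standard error 0.12, limma adjusted p = 0.643).
Of the 14 glycolytic enzymes 7 rose with the 75th percentile as the scaling, namely HK1, GPI, TPI1, GAPDH, PGK1, ENO2 and PKM, and PFKP fell. None of the 7 rises passed with the array median or the spike-in transcripts. GAPDH (NM_002046), the glyceraldehyde 3-phosphate dehydrogenase and a common reference gene of quantitative PCR, had signals of 179043 and 264149 at 3 and 72 h, between 170117 (16 h) and 265150 (66 h), with a median of 202961. Its slope was 0.20 (standard error 0.03, limma adjusted p = 1.5e-05) with the 75th percentile, 0.07 (adjusted p = 0.198) with the array median and -0.01 (adjusted p = 0.956) with the spike-in transcripts. PGK1, the first ATP-forming kinase of the pathway, ranged from 52811 to 109417 with a slope of 0.20 (standard error 0.06, adjusted p = 0.00455), and PKM, the pyruvate kinase of muscle and of dividing cells, from 43109 to 68548 with a slope of 0.12 (standard error 0.04, adjusted p = 0.0188). ENO2, the neuronal enolase, went from 4524, its lowest, through 14890 at 36 h to 9568 on the last array, with a slope of 0.35 (standard error 0.10, adjusted p = 0.00715). PFKL, the liver phosphofructokinase, showed its largest step, 1.34, from 12 to 14 h, where the slide also changes.
Some of these calls rested on single arrays. The call of PFKP (slope -0.10, standard error 0.04, limma adjusted p = 0.0376) was lost without any 1 of the 3, 4, 6, 10, 12, 42, 60 or 72 h arrays, with adjusted p from 0.0504 to 0.0855. That of HK1 (adjusted p = 0.0306) was lost without 72 h (0.0784), that of TPI1 (0.0178) without 66 h (0.067), and that of EGLN1 (0.0266) without 6 h (0.0516) or 66 h (0.0705). ALDOC and PDK1 were called as rising only without 72 h (adjusted p = 0.0492 and 0.0274) and SLC16A3 only without 24 h (0.0477). MXI1 was called as rising without 24, 28, 36, 42 or 54 h (0.0357 to 0.0479), and its 2 other probes rose with all arrays. A second probe of PFKFB3 also rose (adjusted p = 0.00798) where the brighter did not (0.703).
The 5 members that fell included both HIF alpha subunits. HIF1A (NM_181054) went from 3909 on the first array through a highest value of 4545 (16 h) to a lowest of 2899 (72 h), with a median of 3744 and a slope of -0.12 (standard error 0.03, limma adjusted p = 0.00274). A second probe of HIF1A had a slope of -0.03 (adjusted p = 0.603). EPAS1 (NM_001430) had signals of 673 and 435 on the first and last arrays, between 295 (54 h) and 683 (66 h), with a median of 449 and a slope of -0.26 (standard error 0.09, adjusted p = 0.0177). The largest step of EPAS1, 0.98, lay between 60 h (347) and 66 h. LDHB (NM_002300), the lactate dehydrogenase subunit that favours pyruvate, went from 210026 on the first array to 155154 on the last, its lowest, with a slope of -0.13 (standard error 0.03, adjusted p = 0.000716) and a fall in its second probe too. HIF1A, EPAS1, LDHB, EGLN3 and PFKP fell under all 3 scalings, and none of the 5 passed with the slide as a block. With another processing, normexp with quantile normalization, PFKP (slope 0.02, limma adjusted p = 0.718) and HIF1A (-0.05, 0.177) were not called. Over 3 to 54 h PFKP (-0.11, limma adjusted p = 0.135) and EGLN3 (0.09, 0.549) were not called.
EGLN3 (NM_022073) had the clearest curve. Its signals were 2249, 4215, 4789 and 4699 at 3, 12, 24 and 36 h, the third of these being its highest, and 3640, 2705, 1262 and 896 at 42, 54, 60 and 72 h. The cubic curve gave a limma adjusted p of 7.36e-09. It rose within the first slide, with a slope of 2.28 log2 per day (limma adjusted p = 0.0247), and fell within the third, with a slope of -2.13 (limma adjusted p = 2.75e-05). With the spike-in transcripts the fall within the third slide passed (-3.36, limma adjusted p = 2e-05) and the slope within the first did not (2.09, adjusted p = 0.564).
Slopes within a slide do not contain level differences between slides. Within the second slide 11 members rose (9.64% of tested genes), namely HK1, GPI, PGK1, LDHA, SLC2A3, PDK1, PDK3, BNIP3, NDRG1, P4HA1 and P4HA2, and 0 fell (9.09%). With the array median as the scaling 6 members rose within this slide (6.73% of tested genes), and with the spike-in transcripts 0 rose (0.222%) and 0 fell (1.31%). Within the first slide EGLN3 alone rose (2.11% of tested genes) and 0 members fell (3.31%). EGLN3 alone rose with the array median too (1.31%), and with the spike-in transcripts 0 members rose (0.114%) and 0 fell (0.306%). Within the third slide 0 members rose (9.03%) and 4 fell (14.4%), namely PGAM1, PDK1, BNIP3L and EGLN3. With the array median 0 rose (4.39%) and 7 fell (22.0%), and with the spike-in transcripts 0 rose (0.246%) and 26 fell (79.7%). CA9, a carbonic anhydrase of the cell surface and a classic hypoxia marker, stayed between 19.0 and 66.3, near background, with its largest step, -1.44, at 72 h, and had no call in any of these fits with the 75th percentile.

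Related members were compared through their ratio within each array, which does not depend on the scaling. Of 14 pairs 13 could be tested with a two-sided permutation test of the hours (100000 resamples, adjusted over the 13), and 9 differed in slope. With the slide as a block and hours permuted within slides 4 differed, of which 3 were also among the 9.
LDHA over LDHB rose by 0.37 log2 per day (standard error 0.07, permutation adjusted p = 0.00039), and by 0.59 with the slide as a block (permutation adjusted p = 0.0393). LDHA (NM_005566), the subunit that favours lactate, had signals of 49496, 88742 and 66481 at 3, 36 and 72 h, and its own slope was 0.24 (standard error 0.07, limma adjusted p = 0.00536). BNIP3 over BNIP3L rose by 0.48 (standard error 0.06, permutation adjusted p = 0.00013), and by 0.64 with the slide as a block (permutation adjusted p = 0.0315). EGLN1 over EGLN3 rose by 0.90 (standard error 0.16, permutation adjusted p = 0.00026), and by 1.48 with the slide as a block (permutation adjusted p = 0.0393). EGLN1 went from 1081 through 507 (16 h, its lowest) and 3293 (36 h, its highest) to 1464. These 3 pairs differed in both tests.
SLC2A1 over SLC2A3 had a slope of -0.33 (standard error 0.08, permutation adjusted p = 0.00182), and the other 5 differences were smaller or less certain. They were ENO1 over ENO2 (-0.33, permutation adjusted p = 0.0219), PFKFB3 over PFKFB4 (-0.25, 0.0349), PFKL over PFKP (0.30, 0.0457), HK1 over HK2 (0.25, 0.048) and P4HA1 over P4HA2 (0.07, 0.0236). All pairs used the brightest probe of each gene. A second probe of PFKFB3 had a slope of 0.40, against 0.17 for PFKFB4. A second probe of HK2, above background on 10 arrays, had a slope of 0.43, against 0.12 for HK1. With these probes both differences would have the opposite sign, and such ratios were not tested. The ratio of HIF1A to EPAS1 had a slope of 0.14 (standard error 0.10, permutation adjusted p = 0.174), PFKL over PFKM one of 0.22 (0.11, 0.0803), PDK1 over PDK3 one of 0.17 (0.08, 0.0766), and PFKM over PFKP one of 0.08 (0.04, 0.0782). PFKM over PFKP differed with the slide as a block (0.28, permutation adjusted p = 0.0315).

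**Figure D5:**
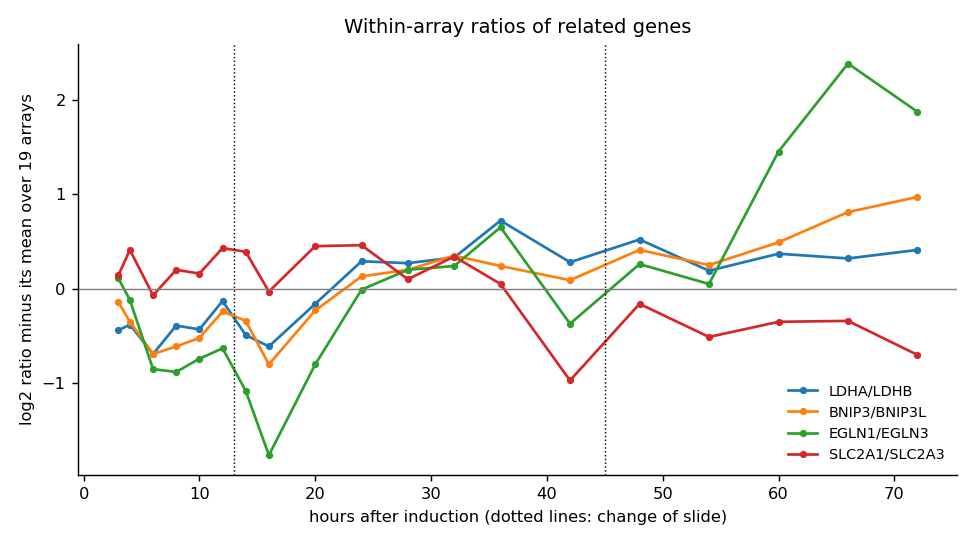
Log2 ratio of the signals of 2 related genes within each array, minus the mean of that ratio over the 19 arrays, by hours after induction, with dotted lines where the slide changes. Over the 19 arrays LDHA/LDHB, BNIP3/BNIP3L and EGLN1/EGLN3 rose by 0.37, 0.48 and 0.90 log2 per day and SLC2A1/SLC2A3 had a slope of -0.33.

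Genes of the same pathways outside the 40 were read from lists of known function, against the same background of 24.6% rising and 29.8% falling. Of 33 other hypoxia targets tested 8 rose and 4 fell. At 42 h 10 were lower by at least 1 on the log2 scale (1.26% of tested genes), with a median step of -0.69. BHLHE40, a circadian and hypoxia-responsive repressor, had signals of 2539, 180 and 953 at 36, 42 and 48 h, and its relative BHLHE41 at 1268, 239 and 1150. HILPDA, a lipid droplet protein, was at 20674, 5072 and 11091. Of these 33 genes 8 were below both neighbours at all of 6, 16, 42 and 54 h (2.2% of tested genes). BHLHE41 (late minus early 1.87) and the ribonuclease ANG (1.32) had the largest rises, and the adenylate kinase AK4 (-0.92) was among those that fell. With the array median 3 of the 33 rose and 5 fell, with the spike-in transcripts 0 rose and 7 fell, and with the slide as a block 0 rose and 1 fell.
Of 13 other components of the HIF pathway 0 rose and 6 fell, led by ELOB, a subunit of the VHL ubiquitin ligase (slope -0.48, limma adjusted p = 1.06e-06), and ARNT2, a partner of the alpha subunits (-0.37, adjusted p = 1.35e-05). Of 14 genes of the mitochondrial TCA cycle 0 rose and 8 fell, with IDH3A (late minus early -0.98) and FH (-0.71) first. Of 12 genes of pyruvate entry into mitochondria PDK4 alone rose (0.64) and 5 fell, with the pyruvate carrier subunit MPC1 (-0.89) and the pyruvate dehydrogenase subunit PDHB (-0.71) first. The signal of PDK4 was low, 47.2 early and 73.4 late, and well above background on 16 arrays. With the array median 8, 9 and 8 genes of these 3 lists fell, and with the spike-in transcripts 8, 8 and 7. Under each of these 2 scalings 44.5% of all tested genes fell. With the slide as a block 2, 3 and 2 genes of these 3 lists fell. PDK4 did not pass with the slide, the array median or the spike-in transcripts.
Of 12 other glycolytic isoenzymes 6 rose and 3 fell. Scaled to the array median 5 rose and 3 fell, scaled to the spike-in transcripts 1 rose and 3 fell, and under a slide block 3 rose and 0 fell. LDHD, a mitochondrial D-lactate dehydrogenase, rose by 1.86 from early to late (slope 0.73, limma adjusted p = 3.45e-08) and also passed with the spike-in transcripts (adjusted p = 2.27e-05) and with the slide as a block (adjusted p = 0.00718). LDHC, the testis form, rose by 1.13, and ADPGK, an ADP-dependent kinase of glucose, fell by 0.62. Of 8 genes of the pentose phosphate pathway TKTL1 alone rose (0.78) and 3 fell, with RPIA (-0.66) and PGD (-0.54) first. The signal of TKTL1 was low, 68.1 early and 117 late. The array median gave 0 rises and 4 falls for this list, the spike-in transcripts 0 and 7 and the slide block 0 and 0. Of 4 tested genes of gluconeogenesis PC alone rose (0.26) and FBP1 alone fell (-0.78), and with the slide as a block 0 of the 4 passed.
Of 5 genes of glucose sensing by MondoA and ChREBP 3 rose and 0 fell, also 3 and 0 with the array median, but 1 and 1 with the spike-in transcripts and 0 and 0 with the slide as a block. TXNIP, a brake on glucose uptake and a target of MondoA, went from an early mean of 1660 to a late mean of 6827 (slope 0.88, limma adjusted p = 2.05e-06), also with the spike-in transcripts (0.68, adjusted p = 0.000897), and its call was lost with a slide block (0.93, adjusted p = 0.0748). MLXIPL, which encodes ChREBP, went from 476 to 1023 (0.43, limma adjusted p = 2.45e-06), and did not pass with the spike-in transcripts (0.22, adjusted p = 0.0557) or the slide as a block (0.33, adjusted p = 0.189). Of 13 tested genes of glycogen metabolism 3 rose, with PGM1 (1.04) and the liver phosphorylase PYGL (0.96) first, and 3 fell, with the brain phosphorylase PYGB (-0.68) first. Either of the other scalings gave 2 rises and 5 falls, and with the slide as a block 2 rose and 1 fell. PPP1R3C, which targets a phosphatase to glycogen, had no call but signals of 5156, 241 and 1740 at 36, 42 and 48 h. Of 11 other glucose and monocarboxylate transporters 4 rose, with SLC16A8 (0.85) and the insulin-responsive SLC2A4 (0.75) first, and 3 fell, with SLC2A8 (-0.50) and SLC16A1 (-0.46) first. Scaled to the array median 1 rose and 5 fell, scaled to the spike-in transcripts 0 rose and 5 fell, and under a slide block none of the 11 passed.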

How the data were processed

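RNA of KhES-3 cells was labelled with Cy3 and hybridized to 19 one-colour Agilent arrays, 1 per time point. The authors deposited the output of Agilent Feature Extraction 10.10.1.1, whose processed signal is an intensity per spot with the background subtracted, with flags (scores of 0 or 1) for spots above background, saturated or outlying. The authors also deposited a table of these intensities times 1 factor per array (0.9051 to 1.3777), blank where not above background. Flagged spots (232 to 814 per array) were left out, spots of a probe were averaged, and log2 intensities were scaled to the 75th percentile of the array. Probes were named through their RefSeq accession. A probe was tested if at least 5 arrays had it well above background (32111 probes). The tool was limma (version 3.58.1, R 4.3.3) with lmFit, eBayes and Benjamini-Hochberg adjustment over all probes tested, fitting a slope on hours, a cubic curve or slopes within slides, and the fits were tested on simulated data. Slopes are per 24 h. Gene counts use 1 probe per gene, the brightest.
The members and lists were chosen with earlier results of these data known. Values over time are given for the 6 largest called rises and falls, members with a step over 1, pairs with a called difference and 8 set genes, and for the lists the 2 largest called rises and falls, of which some genes are not reported here. The low points, the step at 42 h, the high points at 24 to 36 h and the slide with another scaling were added after seeing the data, and genes named for their step at 42 h outside the members were chosen after their values were seen. Alternatives were the array median, the 7 of 10 spike-in levels above background on every array, normexp (offset 50) with quantile normalization, the deposited table, other filters, log2 hours, 3 to 54 h, the mean of a gene's probes, the slide as a block, and each array left out. The number of arrays limits the precision. Tables and permutations were made in Python 3.11.15 (numpy 2.4.6, pandas 2.3.3, scipy 1.17.1).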

Additional observations from a re-analysis of the deposited data

How the results depend on the processing

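The count of rising members was 14, and it was 5 with the array median, 1 with the spike-in transcripts, 2 under the slide block, 2 with the slide and the array median and 0 with the slide and the spike-in transcripts, and 12 to 16 with each array left out. The count of falling members was 5, and it was 8 with the array median, 7 with the spike-in transcripts, 3 after normexp with quantile normalization, 3 over 3 to 54 h, 0 under the slide block, 3 with the slide and the array median and 7 with the slide and the spike-in transcripts, and 4 to 5 with each array left out. Members called by the cubic curve numbered 24, 11 with the slide as a block and 20 to 29 with each array left out. Within slides the counts of 1, 11 and 4 became 1, 6 and 7 with the array median and 0, 0 and 26 with the spike-in transcripts, whose level relative to the 75th percentile was 4.74 and 4.75 log2 at 66 and 72 h and 3.54 to 4.38 on the earlier arrays. Of the 9 pairs 3 differed under the slide block, where 4 pairs did in all. With the brightest probe of each gene all 9 kept their sign with each array left out. The median late minus early change of 0.25 reversed to -0.12 with the array median and to -0.40 with the spike-in transcripts, and was 0.43 after normexp and 0.17 to 0.39 with each array left out. Members lower at 42 h by at least 1 numbered 12, between 11 and 18 under the other scalings and the mean of the probes, and 23 at a step of 0.5. Members below both neighbours at all 4 times numbered 17, and 7 with the spike-in transcripts. Members highest at 24 to 36 h numbered 29, and 21 to 33 under the other scalings. Except where the construction shows it, the cause of these shifts was not tested. For settings whose share of all tested genes is not given above, that share is not reported here. Those counts compare settings among the members, and not the members with other genes. No paired analysis was possible because no 2 arrays share a time. CA9, near background, limits what can be said of it.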

Other observations

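The 20 largest steps downward from 36 to 42 h among genes well above background on all 19 arrays were listed after the values were seen. Of these genes 5 are members, 6 are other hypoxia targets and PPP1R3C belongs to the list of glycogen metabolism. The other 8 were in none of the lists. NOG, which encodes the BMP antagonist noggin, had signals of 1074, 186 and 307 at 36, 42 and 48 h, and lay below both neighbours at each of the 4 low points. FAM13A was at 4166, 743 and 2212 and also had all 4 low points, as did WWC2-AS2 at 379, 40.4 and 325. MXD1, a MAX partner related to MXI1, was at 1120, 199 and 307, CD300A at 675, 136 and 287, MYOD1 at 364, 77.7 and 123, FOSL2 at 251, 62.8 and 98.8 and ARID5A at 1298, 369 and 811. In all, 210 tested genes were lower by at least 1 at 42 h, of which 12 were members and 10 other hypoxia targets, together 10.5%.
GDF15, the cytokine gene that the study followed, had a step of -1.04 from 36 h (26320) to 42 h (12765), beside -0.31 from 14 to 16 h and -0.26 from 4 to 6 h. Its step from 48 to 54 h was 0.06, and from 54 to 60 h it went from 17659 to 64052, a step of 1.86.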
